A study of Mus musculus with 8 samples.

Results

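The 7 genes described here encode the endothelins (*Edn1*, *Edn2* and *Edn3*), their receptors (*Ednra* and *Ednrb*) and the endothelin-converting enzymes (*Ece1* and *Ece2*). They were taken by gene symbol from the 29092 genes of an mRNA-seq table, and each symbol matched 1 row. The table held 4 libraries of enteric neural crest-derived cells (ENCDCs) and 4 libraries of all other bowel cells (gut cells). Both populations came from *Ednrb-EGFP* mouse embryos at E13.5, whose whole bowel between stomach and anus was dissociated and sorted by fluorescence into GFP+ ENCDCs and GFP- gut cells. The embryos came from heterozygous *Ednrb-EGFP* mice mated with wild-type C57BL/6J mice, and only bowels with GFP fluorescence were used, so both populations came from reporter carriers. The labels give the genotype of every sample as wild-type, and no mutant bowel was compared. Each library was made from 750 pg of RNA, and RNA samples were combined where that was needed. Which libraries are pools is not stated. The p-values therefore measure the spread between these libraries, which may in part be technical.

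Endothelins are short secreted peptides that are cut from longer precursors, first by proprotein convertases of the furin type and then by endothelin-converting enzymes, and that act on G protein-coupled receptors. EDNRA binds endothelin-1 and endothelin-2 far better than endothelin-3, while EDNRB binds all of the endothelins about equally well. In the developing bowel, endothelin-3 from the surrounding tissue acts through EDNRB on migrating ENCDCs and keeps them proliferating and undifferentiated while they colonize the gut. Loss of *Edn3*, *Ednrb* or *Ece1* in mice leaves the distal bowel without enteric ganglia, and variants in *EDN3* and *EDNRB* are known from human Hirschsprung disease.

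The ligands are distinguished by the short stretch that becomes the mature peptide, which lies within exon 2 of each gene and is shown here to make the 3 ligand transcripts comparable. The sequences were read from GENCODE M21 transcripts (mm10, plus strand), 5′ to 3′, and capitals mark the bases that differ among the 3 genes. The *Edn1* stretch lies at chr13:42303649-42303711, the *Edn2* stretch at chr4:120161951-120162013 and the *Edn3* stretch at chr2:174761749-174761811.
Edn1: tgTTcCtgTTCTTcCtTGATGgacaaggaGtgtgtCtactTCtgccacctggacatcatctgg
Edn2: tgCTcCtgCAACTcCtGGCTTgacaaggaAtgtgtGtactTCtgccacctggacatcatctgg
Edn3: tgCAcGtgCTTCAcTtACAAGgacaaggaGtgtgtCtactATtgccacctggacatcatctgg
Of the 63 bases, 45 were identical in all 3 genes and 18 differed. The stretch holds 21 codons, of which 15 encoded the same residue in all 3 ligands, and the last 7 codons, from codon 15, encoded identical residues. *Edn1* and *Edn2* shared 18 residues, while *Edn3* shared 15 with *Edn1* and 15 with *Edn2*.

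The libraries had nearly equal depth, with total normalized counts of 13250893 to 13264785 in ENCDCs and 13257119 to 13267220 in gut cells. The normalized count is the number of reads that the authors kept for a gene after bringing all libraries to one depth. On the first principal component (66.8% of the variance) the populations separated, and on the second (11.4%) ENCDC replicate 3 stood apart from the other 7 libraries. The markers fitted the labels of the sort. All 8 markers of enteric neural crest and all 7 neuronal markers were higher in ENCDCs (median log2 fold changes of 5.66 and 4.94), and all 8 mesenchyme markers and all 7 smooth muscle markers were lower (medians of -4.33 and -3.79). Each call here is an adjusted p under 0.05 in edgeR's quasi-likelihood test, fitted to 18866 genes with sufficient counts.

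*Edn3* was the most abundant ligand transcript, and it was found mainly in gut cells. *Edn3* had 32, 34, 228 and 15 normalized counts in ENCDC replicates 1 to 4, against 1903, 1550, 1517 and 1652 in gut replicates 1 to 4. The populations did not overlap, and ENCDC replicate 3 was far above the other 3 ENCDC libraries. The ENCDC mean was 77.25 ± 100.9 and the gut mean 1655.5 ± 174.7 (SD, n = 4 each), and the log2 fold change of *Edn3* was -4.38 ± 0.64 (standard error) with an edgeR adjusted p of 0.000284. Without ENCDC replicate 3 the log2 fold change was -5.88, and over all alternative settings the adjusted p was 5.86e-09 to 0.00129. In bulk libraries, fewer cells that express a gene and less RNA of it per cell cannot be told apart. *Edn3* lies on chromosome 2 (chr2:174760619-174784042, plus strand, mm10) and shares no exon sequence with another annotated gene.

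*Edn2*, the ligand gene first described in mouse as vasoactive intestinal contractor, was counted in gut cells alone. It had 0 counts in each of the 4 ENCDC libraries, against 17, 49, 38 and 26 counts in gut replicates 1 to 4. *Edn2* had enough counts to be tested through gut cells alone, where it was higher. With 3 counts over the ENCDC libraries taken as the limit that a count of 0 allows, *Edn2* was at least 43.3-fold lower in ENCDCs. It was called (adjusted p = 0.00067 from edgeR, 4.79e-08 to 0.0112 over the alternatives). The limit and the bound cover counting error only. *Edn1*, the ligand best known from endothelial cells, was scarce in both populations. It had 0, 0, 2 and 6 counts in ENCDC replicates 1 to 4, against 9, 16, 16 and 6 counts in gut replicates 1 to 4. The populations met at 6 counts, in ENCDC replicate 4 and gut replicate 4. The *Edn1* log2 fold change of -2.43 (standard error 1.09) was not called (adjusted p = 0.104 from edgeR, 0.0216 to 0.171 over the alternatives). It was called without ENCDC replicate 4, with a log2 fold change of -3.87 and an adjusted p of 0.0272 from edgeR. The summed *Edn1* counts were 8 in ENCDCs and 47 in gut cells, which gives a gut to ENCDC ratio of 5.88 with an exact 95% interval of 2.75 to 14.4 for counting error. *Edn1* (chr13:42301476-42307990, plus strand) shares 35 of its 2139 exon bases with Gm47118 on the opposite strand, and *Edn2* (chr4:120161206-120167360, plus strand) shares none.

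**Figure D1:**
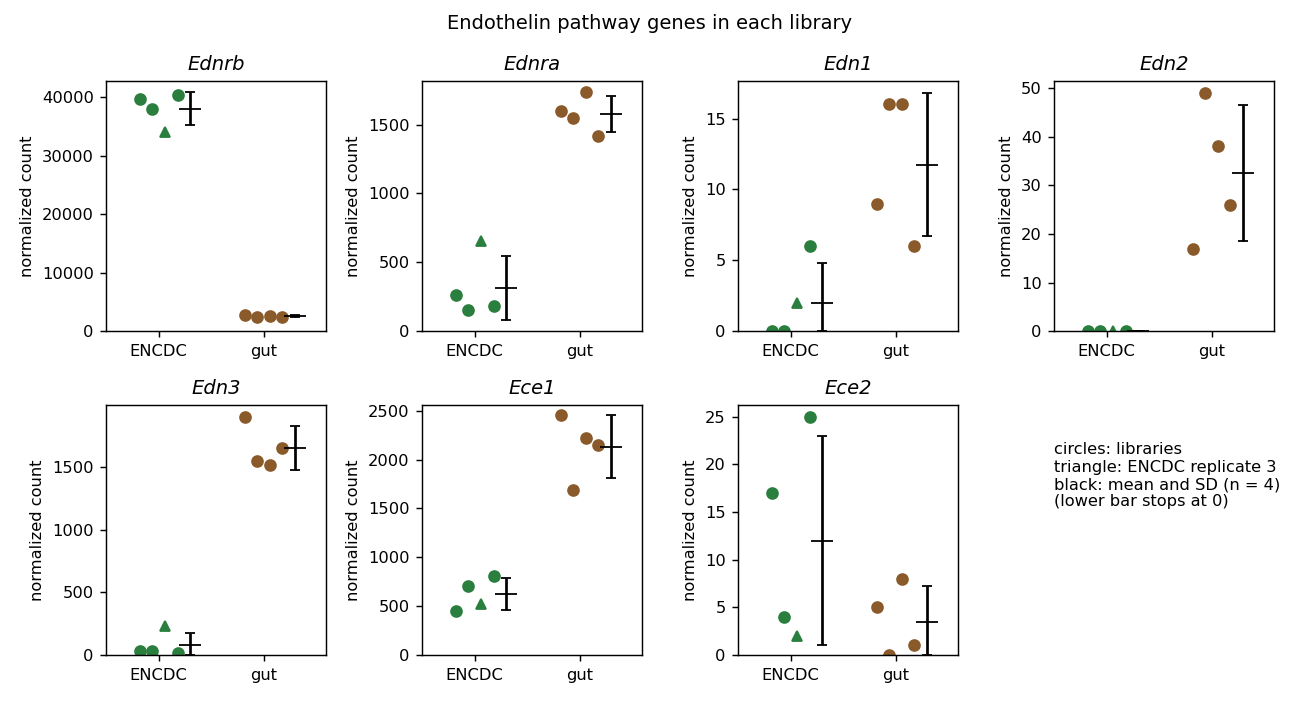
Normalized counts of the 7 endothelin genes in each library (y axis, linear from 0, a separate scale for each gene), with ENCDCs on the left and gut cells on the right. Black bars show the mean and SD (n = 4) and triangles mark ENCDC replicate 3. *Ednra*, *Edn2*, *Edn3* and *Ece1* were lower in all 4 ENCDC libraries than in any gut library, *Edn1* and *Ece2* overlapped, and *Ednrb* is the gene the sort was based on.

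*Ednrb* encodes the receptor whose reporter was used to sort the cells, so its level describes the sort and was not tested. *Ednrb* had 39681, 38061, 34098 and 40395 normalized counts in ENCDC replicates 1 to 4, against 2762, 2471, 2555 and 2441 in gut replicates 1 to 4. It was the gene with rank 3 by mean count in ENCDCs and rank 1035 in gut cells. *Ednrb* took 0.257 to 0.305% of all counts in ENCDC libraries and 0.0184 to 0.0208% in gut libraries. The gut mean of *Ednrb* was 6.72% of the ENCDC mean. By the same measure the crest regulators *Ret* (1.10%), *Sox10* (1.38%) and *Foxd3* (0.57%) stood lower in gut cells, and *Gfra1*, which encodes a GDNF co-receptor, stood at 28.9%. The median over the 8 crest markers was 0.957 to 3.07% in the gut libraries. *Ednrb* was also even among libraries of each population, with a coefficient of variation of 7.4% in ENCDCs and 5.66% in gut cells. The part that crest cells left in the gut libraries have in the *Ednrb* counts there was not tested. *Ednrb* lies at chr14:103814625-103844402 on the minus strand and shares no exon sequence with another gene.

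*Ednra*, the receptor that patterns cranial neural crest and acts in vascular smooth muscle, had the opposite distribution. *Ednra* had 261, 153, 652 and 186 normalized counts in ENCDC replicates 1 to 4, against 1599, 1550, 1733 and 1416 in gut replicates 1 to 4. The populations did not overlap, and ENCDC replicate 3 was the highest of its population. The ENCDC mean was 313 ± 230.5 and the gut mean 1574.5 ± 131 (SD, n = 4 each), and the log2 fold change of *Ednra* was -2.29 ± 0.38 (standard error) with an edgeR adjusted p of 0.000642. Without ENCDC replicate 3 the log2 fold change was -2.92, and the adjusted p was 2.3e-09 to 0.00306 over the alternatives. *Ednra* lies at chr8:77663031-77724464 on the minus strand. It shares 91 of its 5476 exon bases with 4933431K23Rik on the opposite strand, which averaged 1.75 counts in ENCDCs and 17.0 in gut cells, and the libraries do not keep the strand.

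*Ece1*, the membrane peptidase that releases mature endothelins from their precursors, was present in both populations and lower in ENCDCs. *Ece1* had 454, 701, 520 and 812 normalized counts in ENCDC replicates 1 to 4, against 2462, 1688, 2224 and 2155 in gut replicates 1 to 4. The lowest gut library was above the highest ENCDC library, and ENCDC replicate 3 lay within the range of the other ENCDC libraries. The ENCDC mean was 621.75 ± 164.3 and the gut mean 2132.2 ± 324.1 (SD, n = 4 each), and the log2 fold change of *Ece1* was -1.73 ± 0.19 (standard error) with an edgeR adjusted p of 3.58e-05. Of the members that fell, *Ece1* had the smallest change and kept the largest share of its gut level, 29.2% on average. *Ece1* lies at chr4:137862237-137965229 on the plus strand.

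*Ece2*, a related peptidase that works best at acid pH, had few counts in every library. It had 17, 4, 2 and 25 counts in ENCDC replicates 1 to 4, against 5, 0, 8 and 1 counts in gut replicates 1 to 4. The populations overlapped, and the log2 fold change of 1.80 (standard error 1.12) was not called (adjusted p = 0.24 from edgeR). The counts of *Ece2* spread widely between libraries, with a coefficient of variation of 91% in ENCDCs and 106% in gut cells. *Ece2* lies at chr16:20629828-20646485 on the plus strand, and 2937 of its 5110 exon bases are also annotated to Gm49333 on the same strand, so reads from that part cannot be assigned to *Ece2* with certainty.

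All 7 genes passed the filter on low counts, 5 of them in both populations and 2 (*Edn1* and *Edn2*) through gut cells alone, where their counts were higher. Of the 6 genes other than *Ednrb*, 4 were called lower in ENCDCs, 0 were called higher and 2 were not called. Among all genes tested, 20.9% were called lower and 17.0% higher. For 4 of the 6 genes all ENCDC libraries were below all gut libraries, as for 22.3% of all genes tested, and for 0 of them all ENCDC libraries were above all gut libraries, as for 15.0% of all genes. Both counts of 4 include *Edn2*, which passed the filter through gut cells alone. DESeq2 and edgeR called the same number of members in each direction (4 and 0), and voom with limma called 5 lower and 0 higher. Of the 18866 genes tested, DESeq2 called 4279 lower and 3216 higher, and voom with limma called 4353 lower and 3241 higher.

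**Figure D2:**
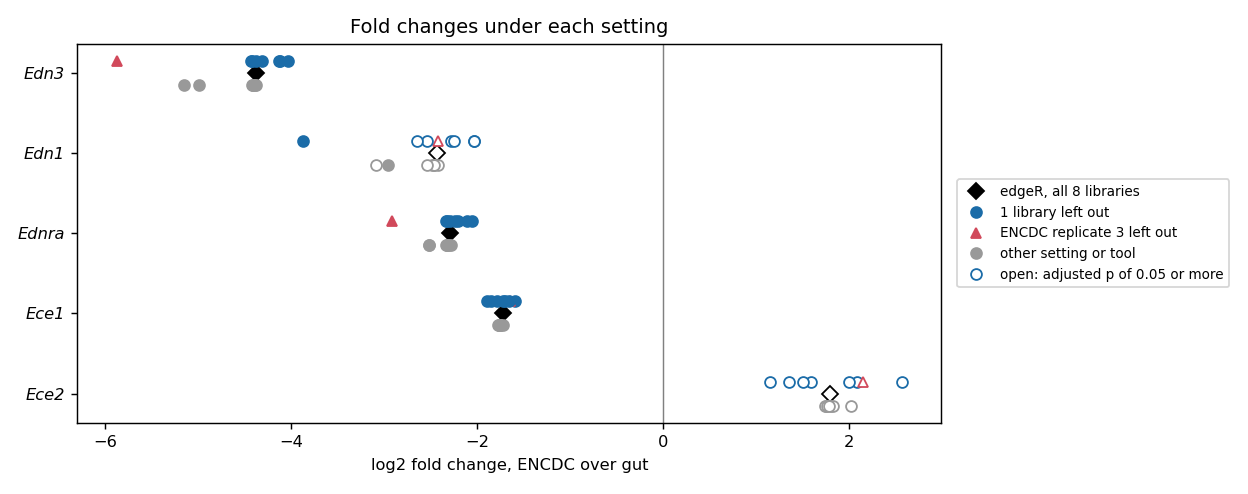
Log2 ratio of ENCDCs to gut cells (x axis) for the members with counts in both populations and a test (rows), under the edgeR fit (diamonds), with 1 library left out (blue, and red triangles for ENCDC replicate 3) and under other settings (grey). Open symbols have an adjusted p of 0.05 or more. *Edn3* moved to -5.88 and *Ednra* to -2.92 without ENCDC replicate 3, *Ece1* stayed between -1.89 and -1.60, and *Edn1* was called in 2 settings.

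To compare levels between genes, each count was divided by the length of the gene's merged exons in kilobases. In ENCDCs, the order of mean counts per kilobase (± SD, n = 4) was *Ednrb* (8921 ± 660), *Ece1* (117.3 ± 31.0), *Ednra* (57.2 ± 42.1), *Edn3* (18.8 ± 24.5), *Ece2* (2.35 ± 2.14), *Edn1* (0.935 ± 1.32) and *Edn2* (0). The libraries of each neighbouring pair below *Ednrb* overlapped in ENCDCs, except that all values of *Edn2* were 0, which *Edn1* matched in 2 libraries. Within single libraries, *Ednra* was above *Edn3* in every ENCDC library. *Ece1* was above *Ednra*, and *Ece2* above *Edn1*, in all but replicate 3, and *Edn3* was above *Ece2* in all but replicate 4. In gut cells, *Ednrb* had 599.4 ± 33.9 counts per kilobase, *Edn3* 402.5 ± 42.5, *Ece1* 402.3 ± 61.1, *Ednra* 287.5 ± 23.9 and *Edn2* 22.2 ± 9.55 (SD, n = 4). The levels per kilobase of *Edn3* and *Ece1* in gut cells did not differ beyond their spread. *Edn1* had 5.49 ± 2.36 and *Ece2* 0.685 ± 0.723 counts per kilobase in gut cells, and these lowest levels did not overlap with each other. When the longest transcript was used as the length, the gut means per kilobase were 531.1 for *Edn3*, 442.7 for *Ece1* and 434.3 for *Ednra*.

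Within the receptor pair, *Ednrb* made up 99.5, 99.7, 98.5 and 99.6% of the counts per kilobase in ENCDC replicates 1 to 4, against 68.9, 67.2, 65.4 and 68.9% in gut replicates 1 to 4. *Ednrb* thus exceeded *Ednra* per kilobase in both populations, and it did so also in cells that were sorted for the absence of its reporter. The ratio of *Ednrb* to *Ednra* per kilobase was 195, 319, 67.1 and 279 in ENCDC replicates 1 to 4, against 2.22, 2.05, 1.89 and 2.21 in gut replicates 1 to 4. With longest transcripts the gut ratio was 1.30 to 1.52. The lowest ENCDC ratio was that of replicate 3, in which *Ednra* was highest and *Ednrb* lowest among ENCDCs. These shares follow in part from the sort and were not tested.

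Among the ligands, *Edn3* made up 100, 100, 98.3 and 56.5% of the counts per kilobase in ENCDC replicates 1 to 4, against 96.7, 90.2, 91.7 and 95.1% in gut replicates 1 to 4. The *Edn3* shares overlapped between the populations. The ENCDC mean was 88.7 ± 21.5% and the gut mean 93.4 ± 3.0% (SD, n = 4 each). In ENCDC replicate 4 the *Edn1* share was 43.5%, and it rested on 6 *Edn1* and 15 *Edn3* counts. With so few ligand counts the ENCDC shares are imprecise. *Edn2* made up 0% in ENCDCs and 5.28 ± 2.46% in gut cells, and *Edn1* made up 11.3 ± 21.5% in ENCDCs and 1.30 ± 0.615% in gut cells. *Ece1* made up 96.3 to 99.6% of the converting enzyme counts per kilobase in ENCDCs and 99.6 to 100% in gut cells.

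Among ENCDC libraries, *Edn3* and *Ednra* were highest in the library with the highest levels of markers of other bowel cells. *Edn3* stood at 1.93, 2.05, 13.8 and 0.906% of its gut mean in ENCDC replicates 1 to 4, and *Ednra* at 16.6, 9.72, 41.4 and 11.8%. The median mesenchyme marker stood at 4.11, 1.72, 8.93 and 1.99% of its gut mean in the same libraries, and the median smooth muscle marker at 6.0, 3.48, 15.9 and 2.03%. Replicate 3 was the highest in each case. The summed mesenchyme counts (8 genes, none at 0 in all libraries of a population) were 2881 to 20295 in ENCDC libraries and 150792 to 199314 in gut libraries, and the summed smooth muscle counts (7 genes) were 996 to 7625 and 42565 to 51946 in ENCDC and gut libraries. Pericyte markers (median 2.94 to 10.4% of the gut mean) and mesothelium markers (1.69 to 3.98% in the other ENCDC libraries) were also highest in ENCDC replicate 3. The part of these cells in the *Edn3* and *Ednra* counts of ENCDCs was not tested.

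*Edn3* stood at 0.906 to 2.05% of its gut mean in the other 3 ENCDC libraries, where the median mesenchyme marker stood at 1.72 to 4.11%. *Edn3* was below that median in replicates 1 and 4. It was above the median in replicate 2 (2.05 against 1.72%), as in replicate 3 (13.8 against 8.93%). *Ednra*, at 9.72 to 16.6% in ENCDC replicates 1, 2 and 4, was above the medians of the mesenchyme, smooth muscle (2.03 to 6.0%) and pericyte (2.94 to 6.5%) lists in each of them. In ENCDC replicates 2 and 4 *Ednra* was below the medians of the epithelium (14.5 and 12.3%) and endothelium (21.9 and 25.7%) lists. *Ece1* stood at 21.3, 32.9, 24.4 and 38.1% of its gut mean in ENCDC replicates 1 to 4, above the mesenchyme, smooth muscle, pericyte, epithelium and mesothelium medians in all 4 libraries, and it was not highest in replicate 3. The endothelial list was mixed. Its median stood at 8.44, 21.9, 37.2 and 25.7% of the gut mean, with 5 of 8 genes lower in ENCDCs and *Kdr* higher, and its summed counts were 801 to 1278 in ENCDCs and 1350 to 1877 in gut cells. *Ece1* was below that median only in replicate 3.

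**Figure D3:**
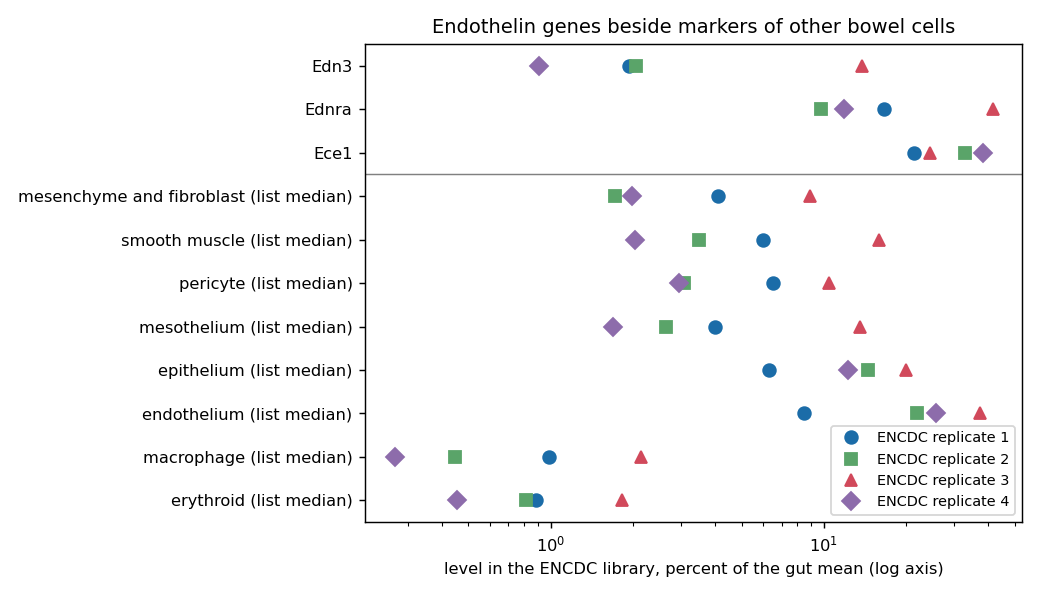
Level of *Edn3*, *Ednra* and *Ece1* in each ENCDC library as a percent of the gut mean (x axis, log scale), above the median of each marker list of other bowel cells (rows), with 1 symbol for each ENCDC replicate. *Edn3* and *Ednra* were highest in replicate 3 (13.8 and 41.4%), as was every list median shown, while *Ece1* ran from 21.3 to 38.1% with replicate 4 highest.

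The genes whose pattern over the 8 libraries was most like that of a member were found by the root mean square difference of their TMM-normalised log2 levels, each gene centred on its own mean, among 11553 genes that averaged 100 counts or more where they were higher. For *Edn3* these were *Htra3* (0.208), *Foxf1* (0.346) and *Tgfbi* (0.349). *Foxf1*, a transcription factor of gut mesenchyme, is also on the mesenchyme list. For *Ednra* they were *Vill* (0.155), *Begain* (0.177) and *Rassf4* (0.183), and for *Ece1* they were *Inpp5a* (0.122), *Gli3* (0.187) and *Grn* (0.196). *Gli3* encodes a transcription factor of the Hedgehog pathway, and *Grn* the secreted protein progranulin. For *Ednrb* they were *Dpysl3* (0.0938), *Hap1* (0.142) and *Fabp7* (0.146), where *Fabp7* encodes a fatty acid-binding protein of glial precursors and *Dpysl3* a cytosolic protein of growing axons. The measure describes these libraries, in which the contrast between the populations sets most of the pattern.

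Around the members, 57 genes of the processing and signalling steps were in the table and 55 could be tested. Of these, 18 were higher in ENCDCs, 13 were lower and 24 were not called, with a median log2 fold change of 0.10 beside -0.04 over all genes tested. The share called higher was above the 17.0% of all genes and the share called lower was close to the 20.9% of all genes. The lists were chosen with earlier results of these data known, and no test of the list was made. Without single libraries the numbers were 15 to 22 higher and 12 to 13 lower.

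The proprotein convertases, which make the first cut in endothelin precursors, went both ways, with 2 of 7 higher, 1 lower and a median of -0.13. *Furin*, the convertase of the secretory pathway of most cells, had 513 ± 185.6 counts in ENCDCs and 730.75 ± 133.1 in gut cells and was not called (adjusted p = 0.177 from edgeR). *Pcsk1*, the convertase of neuroendocrine granules, had 110, 148, 85 and 185 counts in ENCDCs, against 13, 12, 18 and 26 in gut cells, a log2 fold change of 2.98 (adjusted p = 0.000221 from edgeR). *Pcsk2* rose by 1.30, a call that was lost in 7 of 15 alternatives (adjusted p up to 0.0822 from edgeR), and it shares 260 exon bases with Pcsk2os1 on the opposite strand. *Pcsk5* had 64, 22, 1 and 34 counts in ENCDCs, against 551, 427, 481 and 448 in gut cells, and fell by 3.92 (-4.58 without ENCDC replicate 1).

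Of the neprilysin family, to which the converting enzymes belong, 3 of 5 genes could be tested, and 1 was higher and 2 were lower (median -3.41). *Mme* encodes neprilysin, which degrades small peptides at the cell surface. It had 23, 0, 58 and 4 counts in ENCDCs, against 327, 222, 191 and 198 in gut cells, and fell by 3.41 on the log2 scale (adjusted p = 0.00774 from edgeR), with a log2 fold change of -4.63 without ENCDC replicate 3. *Kel*, the Kell blood group peptidase of red cells, which in humans can cut the precursor of endothelin-3, had 0, 5, 22 and 0 counts in ENCDCs, against 372, 499, 344 and 295 in gut cells, and it passed the filter on low counts through gut cells alone. *Kel* fell by 5.74 (adjusted p = 0.000163 from edgeR), with a log2 fold change of -7.67 without ENCDC replicate 3, and all 6 erythroid markers were lower in ENCDCs as well (median -6.70, at 0.454 to 1.83% of the gut mean). *Ecel1*, a neuronal relative with no known endothelin substrate, had 235, 363, 391 and 320 counts in ENCDCs, against 184, 148, 163 and 147 in gut cells, and rose by 1.08 (adjusted p = 0.00186 from edgeR).

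*Gpr37l1* and *Gpr37* encode orphan receptors that resemble EDNRB in sequence. *Gpr37l1*, known from glia, had 35, 43, 28 and 44 counts in ENCDCs, against 0 in each gut library, and was at least 50.0-fold higher with 3 counts over the 4 gut libraries as the limit, for counting error only (adjusted p = 0.000298 from edgeR). *Gpr37l1* passed the filter on low counts through ENCDCs alone, where it was higher. *Gpr37* had 19.75 ± 19.2 counts in ENCDCs and 37.25 ± 20.5 in gut cells, overlapped and was not called (adjusted p = 0.526 from edgeR).

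The G protein alpha subunits through which endothelin receptors signal had 1 of 10 genes higher, 2 lower and a median of 0.15. *Gnaq*, *Gna11*, *Gna12*, *Gna13* and the 3 inhibitory subunits *Gnai1*, *Gnai2* and *Gnai3* were not called, and *Gnaq* had 1222 ± 343.4 counts in ENCDCs and 977.25 ± 96.5 in gut cells. *Gna14*, a close relative of *Gnaq*, fell by 2.82, with 54, 185, 218 and 28 counts in ENCDCs, against 988, 645, 651 and 1235 in gut cells. *Gnao1*, the alpha subunit abundant in neurons, rose by 1.39, and *Gnas*, the stimulatory subunit, fell by 0.41. *Gnas* shares exon sequence with Nespas and Gm20721 on the opposite strand.

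Downstream of Gq, 4 of 11 genes for phospholipase C-beta, IP3 receptors and protein kinase C were higher in ENCDCs and 4 were lower (median 0.36). The calls of *Plcb2* (lower) and *Prkce* (higher) were lost in 6 and 8 of 15 alternatives, with adjusted p up to 0.101 and 0.0864 from edgeR. *Plcb1* rose by 1.64, *Plcb4* by 0.86 and *Prkcb*, the protein kinase C-beta gene, by 1.95. *Itpr1* fell by 1.78, *Itpr2* by 3.49 and *Prkcd*, the protein kinase C-delta gene, by 1.56. *Itpr2* had 34, 6, 0 and 18 counts in ENCDCs, against 271, 142, 131 and 138 in gut cells, and its log2 fold change was -4.33 without ENCDC replicate 1. *Prkcb* and *Plcb4* were lowest among ENCDCs in replicate 3, with 384 and 530 counts, and *Plcb4* overlapped with the gut libraries there.

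Genes that switch receptors off or shorten G protein signals had 5 of 11 members higher and 3 lower (median 0.35). *Rgs4*, which speeds the inactivation of Gq and Gi and is found in neurons, had 923, 1055, 1136 and 965 counts in ENCDCs, against 86, 114, 81 and 84 in gut cells, and rose by 3.53 (adjusted p = 5.08e-08 from edgeR). *Rgs5*, a related gene of pericytes and one of the pericyte markers, had 78, 35, 84 and 27 counts in ENCDCs, against 1067, 1100, 1124 and 1032 in gut cells, and fell by 4.22 (adjusted p = 1.66e-06 from edgeR). All 6 pericyte markers were lower in ENCDCs (median -4.22). *Rgs2*, which acts on Gq, fell by 1.17. *Grk3*, a receptor kinase, rose by 1.52, while *Grk2*, which phosphorylates many receptors, had 1150 ± 288.1 counts in ENCDCs and 933.75 ± 122.6 in gut cells and was not called (adjusted p = 0.14 from edgeR). The arrestins differed in direction, with a fall of *Arrb1* by 1.22 and a rise of *Arrb2* by 0.61, and the *Arrb2* call was lost in 7 of 15 alternatives (adjusted p up to 0.0972 from edgeR).

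Of the small GTPase and MAP kinase effectors, 4 of 11 were higher and 1 was lower, with a median of 0.02. *Map2k1* rose by 1.11 and *Map2k2* by 0.36, and both encode kinases that activate ERK. *Mapk3*, which encodes an ERK kinase, had 1977.25 ± 122 counts in ENCDCs and 1194.25 ± 62 in gut cells and was also called higher. *Arhgef1*, a guanine nucleotide exchange factor that G12 and G13 activate, fell by 0.51. *Rhoa* (3615.5 ± 225.9 counts in ENCDCs and 3687 ± 447 in gut cells), *Rock1* and *Rock2* were not called.

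**Figure D4:**
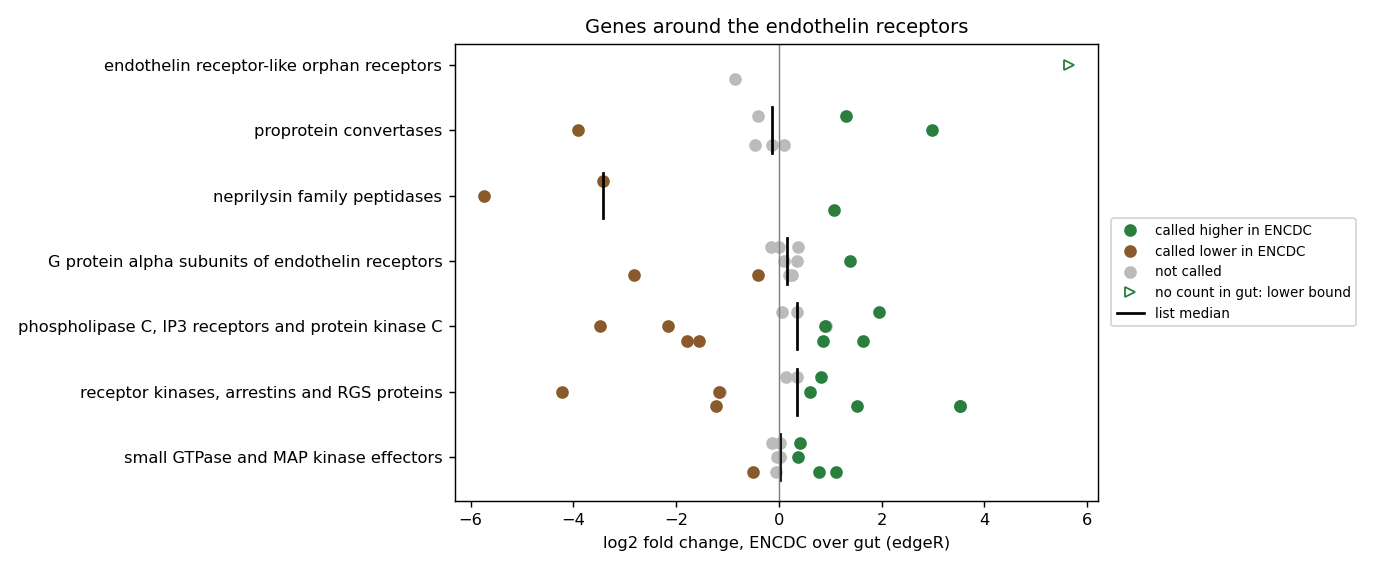
Log2 ratio of ENCDCs to gut cells (x axis, edgeR) for the 55 tested genes around the endothelin receptors, by list (rows), with green for higher, brown for lower and grey for not called, and a black line at the median of lists of 3 or more genes. The open triangle is the lower bound for *Gpr37l1* (5.64), which had no count in gut cells. Neprilysin family peptidases spread from -5.74 to 1.08, and most G protein alpha subunits lay near 0.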

How the data were processed

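mRNA-seq of 4 ENCDC and 4 gut cell replicates was analysed. The cDNA was made with a SMARTer kit and the libraries with NexteraXT, which keep no strand. The authors aligned the reads with STAR 2.4.2a to mm10 and normalized them with PORT, and the deposited values are minimum normalized read counts, whole numbers for 29092 genes. The deposited design text speaks of small RNAs and CPM, while the labels, the study's methods and the whole-number values fit mRNA read counts.

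A gene was tested where 1 population or both averaged 3 counts or more and had counts above 0 in 3 or 4 libraries. The test of ENCDCs against gut cells was run in edgeR 4.0.16 under R 4.3.3 (TMM factors, quasi-likelihood F test, Benjamini-Hochberg adjustment over all 18866 genes, calls under 0.05). The TMM factors were 0.968 to 0.997 in ENCDCs and 1.01 to 1.03 in gut cells. The procedure was tested on simulated data. Limma 3.58.1 (voom, the authors' own test) and DESeq2 1.42.0 served as alternatives, besides RLE factors, no factors, other filters, a replicate block and leaving out each library in turn. No 2 libraries agreed within sampling noise. Of the gene IDs, 29035 matched GENCODE M21, which gave positions, lengths, overlaps and sequences, and for 27468 of them the interval in the table is wider than the annotated gene on both sides. Tables and figures were made in Python 3.11.15 with pandas 2.3.3 and matplotlib 3.10.9.

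The members and all lists were chosen with earlier results of these data known. The text names all members, up to 3 called genes a direction with the highest mean count from each pathway list, and the 3 genes most like each member that averages 100 counts or more. Genes without a call, *Mapk3*, *Plcb2*, *Prkce* and the markers were named after their values were seen. Some genes that the rule picks are left out of the text. Calls not given in the report were 7 of 7 epithelium genes lower (median -2.93), 5 of 6 mesothelium genes lower (-3.92), 6 of 6 macrophage genes lower (-6.20), and 2 of 3 genes of interstitial cells of Cajal lower and 1 higher (-3.56). Where all 4 libraries were at 0, their sum was taken as 3 counts. *Mmel1* and *Phex* had too few counts to be tested.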

Additional observations from a re-analysis of the deposited data

Results flagged for a closer look

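Among 24 groups of 4 values (counts and shares of the members in each population), 3 held a value far from the others, where the gap to the nearest value, as a share of the whole range, was above Dixon's critical value. Chance gives such a value in about 5% of groups, and several of these groups share the same counts. *Edn3* had 228 normalized counts in ENCDC replicate 3, against 15 to 34 in the other ENCDC libraries, a gap of 0.911 of the range. In ENCDC replicate 4 the *Edn3* share of the ligand counts per kilobase was 56.5% and the *Edn1* share was 43.5%, each with a gap of 0.962 of the range. Both shares of replicate 4 rest on the same 15 *Edn3* and 6 *Edn1* counts.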

How the results depend on the processing

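Of 222 values recomputed for the members and the counts of calls, 216 were labelled as the same. Fold changes had to keep their direction and call, counts of calls had to stay within a set fold limit, and means within the spread between libraries. A mean with a library left out could not leave that spread, so for those means the label does not measure stability. *Edn1* became called with voom and limma (-2.96, adjusted p = 0.0216 from limma), and its log2 fold change was -3.87 to -2.03 without single libraries. Shares in gut cells depended on the length used. With raw counts the *Edn3* share of the ligands was 97.3%, the *Edn2* share 1.97% and the *Ednrb* share of the receptors 61.9%, and with the longest transcript the *Ednrb* share was 58.9%. Without single libraries the members called lower numbered 4 to 5, and the mean *Edn3* level in ENCDCs was 1.63 to 5.92% of the gut mean. No factors, RLE factors and the filters changed no call of a member.

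Replicates of the same number did not deviate together (correlations of -0.0133 to 0.0318 across genes). Noise between libraries can hide a shared origin, so these values cannot decide whether libraries of the same number came from the same bowels. With a replicate block the log2 fold changes were -4.99 for *Edn3* (adjusted p = 0.000534 from edgeR), -2.51 for *Ednra* (0.000412), -1.75 for *Ece1* (0.000424), -3.09 for *Edn1* (0.136) and 2.03 for *Ece2* (0.325). *Edn2* had an adjusted p of 0.0112 from edgeR with the block, its highest over the alternatives. The same number of members, 4, was lower. The block ended the calls of *Arrb2*, *Prkce* and *Plcb2* (adjusted p of 0.0769, 0.0864 and 0.0581 from edgeR), and 16 pathway genes were higher and 12 lower. The median of all genes was -0.14 with no filter and between -0.09 and -0.02 under the other settings. The counts of *Edn1*, *Edn2* and *Ece2* were below 50 in every library.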
